A study of Mus musculus with 14 samples.

Results

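The response of mouse muscle to follistatin was compared between an early and a late time: for each gene, the follistatin effect at day 3 was subtracted from the follistatin effect at days 7 and 14. Of 24359 genes in the files, 11306 entered this comparison, those with a mean of at least 1 FPKM over all 14 libraries (a fragment count divided by transcript length and by the size of the library) and a usable estimate in both of the authors' tables. Libraries were made from polyadenylated RNA of the tibialis anterior, a fast muscle of the shin, from C57Bl/6 mice. At day 3 there were 3 control and 4 follistatin libraries. Late controls comprised 3 libraries, 2 from day 7 and 1 from day 14, and late follistatin comprised 4, 2 from each day. All arms came from the same strain and muscle, and the deposited comparisons name them MCS (control) and FST (follistatin). The route of follistatin, the treatment of controls and whether replicates came from separate animals are not given in the labels. The p-values therefore reflect only how far these libraries spread, which may be technical. The late arms are not matched by day, and the 1 control library of day 14 has no replicate.

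Follistatin is a secreted glycoprotein that binds activins and myostatin and keeps them from their receptors. In muscle those ligands signal through activin receptors and the receptor-activated Smads, and blocking them is known to enlarge fibres. A muscle that is growing raises protein synthesis, folds and secretes more protein in the endoplasmic reticulum, and adds sarcomeres and cytoskeleton, so the genes of interest range from the ligands and their traps to ubiquitin ligases, chaperones, tubulins and contractile genes. The comparison asks which responses were present at day 3, which appeared later and which did not last.

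Depth cannot be read from FPKM directly. Relative depth could be settled from the steps between low values only for day 3, where it ranged from 0.681 to 1.28 times that of control day 3 replicate 1. FPKM summed to 364513 to 433552 in the late follistatin libraries and to 485755 to 532859 in the other 10. Muscle fibre markers stood high where they were estimated: Ckm and Mylpf held at least 8829 FPKM in every day 3 library. Both are listed at 0 in the late follistatin libraries, where the authors marked them as having too many fragments to estimate. Of 14 fibre markers 13 carried that mark and were left out, so the largest contractile transcripts have no tested value here, and the FPKM sums lack those listed at 0. In control day 7 replicate 1, 16158 genes had an FPKM above 0, while the remaining late libraries had 19383 to 20283 such genes. The median standard deviation between libraries of a group was 0.155 at day 3 and 0.194 in the late set, on the log2(FPKM + 1) scale used for every effect below.

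The difference between the late and the early effect passed the test (limma, Benjamini-Hochberg adjusted p under 0.05) for 10 genes, 0.0884% of those tested: 7 were higher late (0.0619%) and 3 lower (0.0265%). Of the higher genes 3 were already raised at day 3 and rose further: Fst, Adora1 and Tceal5. The other 7 were called only late: Tubb4b, Tuba4a, Gamt and Mir8102 rose, and Nudt4, Serpine2 and Zfp180 fell. Mir8102 is listed at 0 in the 10 libraries other than late follistatin, so its call is no usable test. No gene met the definition of an early-only, fading or reversed response. Taken alone, day 3 gave 152 called genes (1.34%; 90 higher, 0.796%, and 62 lower, 0.548%) and the late set 546 (4.83%; 217 higher, 1.92%, and 329 lower, 2.91%).

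Over all genes 62.7% had effects of the same sign at both times. Of the 152 genes called at day 3, 148 had a late effect of the same sign, 78 were called late in the same direction, and 89 had a larger late effect. Of the 546 genes called late, 498 had a day 3 effect of the same sign but 468 were not called at day 3. The median ratio of the day 3 to the late effect over those 546 genes was 0.345. A call in 1 set and not in the other is no test of a change: for 310 of those 468 genes the difference had an unadjusted p under 0.05, and for 7 an adjusted one. The authors' deposited tables call 602 genes at day 3, 2257 late and 354 in both, 351 of them in the same direction. Follistatin and control libraries did not overlap for 14.9% of all genes at day 3 and for 30.1% late.

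At an unadjusted p under 0.05 the difference was higher for 338 genes (2.99%) and lower for 1340 (11.9%), and it lay below 0 for 7262 genes (64.2%). This tilt moved with the scaling: the median difference over all genes was -0.11, and 0.0045 after each library was rescaled by its median ratio, when 716 genes were higher and 638 lower. Quantile normalization gave a median of -0.017, with 612 higher and 748 lower. Rescaling left 6 genes called, all higher, and none of the 3 lower ones. Values below are as deposited, and differences should be read against -0.11. Counts after median ratio rescaling should be read against the 716 higher and 638 lower among all 11306 genes tested.

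The count also depended on how day 7 and day 14 were joined. With each day as its own group, the 1 control library of day 14 is assumed to vary like the other groups. Adjusted p-values given below for 6 groups by day rest on that assumption. With 6 groups by day, so that the day effects were averaged and not pooled, 34 genes were higher and 35 lower, including all 10 above; 22 of these 69 were small RNA genes. Without follistatin day 7 replicate 1 the counts were 14 and 18, and without follistatin day 7 replicate 2 they were 8 and 14. Without control day 7 replicate 1 they were 2 and 2, and 3 of these 4 were small RNA genes. Without control day 3 replicate 2 or without follistatin day 3 replicate 3, 2 genes in all were called, 1 of them a small RNA gene. Leaving out each library in turn, Tubb4b was called 14 of 14 times, Adora1 7, Tceal5 6, Gamt 6, Fst 5, Nudt4 4, Zfp180 4, Tuba4a 3 and Serpine2 3 times, with no change of sign in any of these 9.

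**Figure D1:**
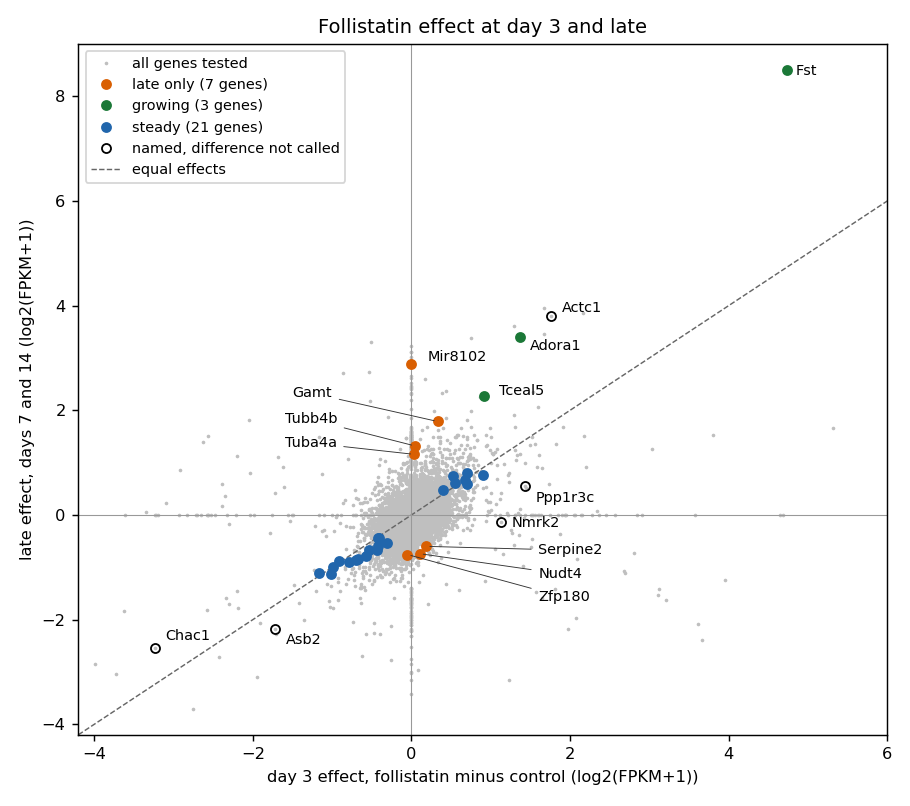
Each point is 1 of 11306 genes, with its follistatin effect at day 3 on the x axis and its late effect on the y axis, both as follistatin minus control on the log2(FPKM + 1) scale; the dashed line marks equal effects. The 3 growing genes lie above the line to the right, the 7 late-only genes lie near a day 3 effect of 0, and the 21 steady genes lie along the line.

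Fst, the gene of follistatin itself, checks the labels first. It lies on chr13:114452290-114458951 (minus strand; all gene positions are GENCODE M21 on mm10). Control libraries held 1.01, 1.12 and 1.42 FPKM at day 3, and 0.808, 1.17 (day 7) and 1.04 (day 14) late. Follistatin libraries held 60.4, 49.7, 52.5 and 67.8 FPKM at day 3. They held 367 and 407 FPKM on day 7 and then 1315 and 1421 on day 14. Every follistatin library stood above every control, and those of day 14 stood above those of day 7, which stood above those of day 3. The effect was 4.74 at day 3 and 8.51 late, and the difference was 3.77 (SE 0.56, 95% interval 2.55 to 4.99, adjusted p = 0.0322). In ratios of mean FPKM, Fst was 48.7-fold higher at day 3 and 874-fold higher late. The files do not separate the mouse's own transcript from one that may have been supplied. Fst level and time rose together, so in every comparison below they cannot be told apart.

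Adora1 encodes an adenosine receptor that couples to inhibitory G proteins (chr1:134199223-134235431, minus strand). Its control libraries held 2.84, 3.06 and 3.50 FPKM at day 3 and 2.45, 3.44 and 1.4 late. Follistatin libraries held 8.84, 12.4, 11.6 and 6.79 FPKM at day 3, and 32.6, 30.5, 33.2 and 41.5 late. The groups did not overlap at either time, and the difference was 2.04 (SE 0.30, 95% interval 1.4 to 2.68, adjusted p = 0.0322). Adora1 shares 1162 exon bases, 20.1% of its own, with Mybph on the opposite strand, and the strand setting is not given in the sources used here, so fragments of both cannot be told apart. Mybph, a myosin-binding protein of the thick filament, had effects of 1.67 at day 3 and 3.45 late, a difference of 1.79 (SE 0.41, adjusted p = 0.145, and 0.0267 with 6 groups by day, range 0.0267 to 0.423). Its follistatin libraries held 58.7, 88.8, 88.1 and 47.7 FPKM at day 3 and 196, 238, 234 and 210 late.

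Tceal5, of a family of small proteins related to a transcription elongation factor, lies on chrX:136200948-136203876 (minus strand). Controls held 7.56, 7.81 and 7.87 FPKM at day 3 and 8.68, 10.3 and 8.25 late, and follistatin libraries 17.5, 11.6, 16.4 and 17.5 at day 3 and 39.9, 44.4, 48.2 and 58.7 late. The groups did not overlap, and the late follistatin libraries stood above all others. Tceal5 rose by 0.92 at day 3 and 2.27 late, a difference of 1.35 (SE 0.21, 95% interval 0.90 to 1.80, adjusted p = 0.0322). Of its 50-base stretches 25.4% also occur in Tceal6 or Tceal3, so the authors' counting could split its fragments. Tceal7, a relative described in muscle differentiation, had effects of 1.67 and 3.96 and a difference of 2.29 (SE 0.52, adjusted p = 0.145). Its follistatin libraries reached 162 and 311 FPKM by day 7, then 393 and 533 by day 14. Of 7 members of the Tceal and Bex family tested, 2 had a higher difference at an unadjusted p under 0.05, against 2.99% of all genes.

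Actc1, the cardiac alpha-actin that developing skeletal muscle also makes, was chosen after its values were seen. Day 3 follistatin libraries held 1059, 790, 747 and 692 FPKM and day 3 controls 265, 190 and 267. On day 7 the follistatin libraries held 5939 and 6161 FPKM and the controls 359 and 578, and on day 14 they held 2122 and 1933 against 74.6. Both arms were lower at day 14 than at day 7, and the groups did not overlap at any day. The difference was 2.04 (SE 0.82, adjusted p = 0.291) with the days pooled, and 2.47 (SE 0.27, adjusted p = 0.00121) with 6 groups by day; over the 13 alternatives the adjusted p ran from 0.00121 to 0.465.

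Among protein-coding genes the difference with the smallest p was that of a tubulin. Tubulins form the microtubules, as pairs of an alpha and a beta subunit. Tubb4b, a beta-tubulin on chr2:25222160-25224702 (minus strand), held 62.5, 54.0 and 58.6 FPKM in day 3 controls and 59.0, 51.9, 70.1 and 60.9 with follistatin. Late controls held 99.0, 94.5 and 116 FPKM, and late follistatin libraries 265, 248, 238 and 283. The groups overlapped at day 3 and did not overlap late. The effect was 0.05 (SE 0.10) at day 3 and 1.32 (SE 0.11) late, the difference 1.27 (SE 0.16, 95% interval 0.94 to 1.61, adjusted p = 0.00876). Controls shifted up by 0.81 between the times and follistatin libraries by 2.08. Of its 50-base stretches 41.3% also occur in other genes, pseudogenes of it among them.

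Tuba4a, an alpha-tubulin on chr1:75214228-75219865 (minus strand), held 319, 275 and 342 FPKM in day 3 controls and 313, 267, 358 and 342 with follistatin. Late controls held 252, 267 and 356 FPKM and late follistatin libraries 668, 637, 613 and 664. The groups overlapped at day 3 and did not overlap late, and the difference was 1.13 (SE 0.18, 95% interval 0.73 to 1.52, adjusted p = 0.038). Tuba4a shares 1379 exon bases, 37.3% of its own, with Stk16 on the other strand, whose difference was 0.36 (adjusted p = 0.345). After median ratio rescaling the Tuba4a late minus early difference was 1.26 and was not called (adjusted p = 0.0503).

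Of 20 tubulin and microtubule genes tested, 5 rose late and 0 at day 3, against 1.92% and 0.796% of all genes. A higher difference at an unadjusted p under 0.05 was found for 5 of the 20, against 2.99% of all genes. The difference was above 0 for 13 of the 20 (median 0.04), and for 16 of the 20 after median ratio rescaling (median 0.16). Beside Tubb4b and Tuba4a the genes past that p, chosen after their values were seen, were the beta-tubulins Tubb6, Tubb5 and the muscle alpha-tubulin Tuba8. Tubb6 held 11.1, 10.4 and 10.5 FPKM in late controls and 27, 26.2, 25.1 and 28.2 with follistatin, with a late effect of 1.24 (adjusted p = 0.00206). At day 3 its controls held 24.3, 28.9 and 50.1 FPKM and its follistatin libraries 37.9, 70.4, 48.3 and 34.7. Both arms of Tubb6 were thus lower late, and its difference of 0.77 was not called (adjusted p = 0.315). The difference of Tubb5 was 0.60 (adjusted p = 0.199) and that of Tuba8 0.67 (adjusted p = 0.202).

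Gamt encodes guanidinoacetate methyltransferase, the last enzyme of creatine synthesis (chr10:80258151-80261012, minus strand). Controls held 10.7, 9.45 and 11.3 FPKM at day 3 and 8.71, 11.9 and 8.56 late. Follistatin libraries held 10.5, 14.8, 13.1 and 15.7 at day 3 and 40.5, 32.1, 29.1 and 42.6 late. The groups overlapped at day 3 and stood apart late, at a 3.71-fold ratio of means. The effect was 0.33 at day 3 (adjusted p = 0.319) and 1.79 late (adjusted p = 0.00972), and the difference was 1.46 (SE 0.23, 95% interval 0.96 to 1.95, adjusted p = 0.0322). The authors' deposited table does not call Gamt late (q = 0.511, log2 fold change 1.90). Gatm, the first enzyme of the same pathway and chosen after its values were seen, had effects of 0.64 and 1.51 and a difference of 0.87 (SE 0.41, adjusted p = 0.346). Unlike those of Gamt, its controls fell, from 5.16, 4.58 and 7.25 FPKM at day 3 to 2.27, 2.86 and 3.12 late. Gatm follistatin libraries overlapped between the times, at 9.65, 12.5, 8.17 and 7.42 FPKM and then 4.73, 10.6, 9.92 and 16.7. The creatine transporter gene Slc6a8 went the other way, with a difference of -0.30 (adjusted p = 0.291). Of 5 creatine genes tested, 1 had a higher and 1 a lower difference at an unadjusted p under 0.05, against 2.99% and 11.9% of all genes. After median ratio rescaling these were 3 and 0.

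Mir8102, a microRNA gene and so passed over by the rule for named genes, was chosen after its values were seen, as 1 of the 10 called genes. It was listed at 0 FPKM in all 10 libraries other than late follistatin, and at 4.97 and 9.78 FPKM at day 7 and 7.02 and 4.76 at day 14 with follistatin. The difference was 2.88 on the log2(FPKM + 1) scale, and no ratio is given because the other groups are listed at 0. It passed the minimum of 1 FPKM only through the group where it is high, and the other groups have no spread, so its call is no usable test and the difference is a description. Its hairpin of 139 bases, 70.5% of them G or C, lies on chr11:97744897-97745035, plus strand (RefSeq, GRCm38.p6). The mature microRNA is shown because this gene was listed above 0 in late follistatin libraries only, with the seed (bases 2 to 8) in capitals; 0 other mature microRNAs of 1738 in the RefSeq table share that seed.
Mir8102: uCACGCGGgggaacgaggaaga

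The hairpin lies in a gap between genes on the minus strand, 192 bases from Pip4k2b and 445 bases from Cwc25. The differences of both neighbours lay below 0, at -0.30 for Pip4k2b (adjusted p = 0.252) and at -0.32 for Cwc25 (adjusted p = 0.308), neither called. A library of polyadenylated RNA does not capture a mature microRNA as such, so these FPKM stand for fragments assigned to the hairpin. Small RNA genes are short, and FPKM divides by length, so few fragments can give such values; their number is not known here. With 6 groups by day 22 of the 69 called genes were small RNA genes, some listed at 0 in whole groups.

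The 3 genes lower late were lower by less than 1 on the log2 scale, and all 3 lost their call after median ratio rescaling, when the Nudt4 late minus early difference was -0.71 (adjusted p = 0.0503), that of Serpine2 -0.65 and that of Zfp180 -0.59 (both adjusted p = 0.0899). Nudt4, a phosphatase of inositol pyrophosphates and of nucleotides (chr10:95547007-95564146, minus strand), held 191, 207 and 195 FPKM in day 3 controls and 224, 206, 205 and 216 with follistatin. Late controls held 251, 228 and 200 FPKM and late follistatin libraries 133, 150, 121 and 137. The late groups did not overlap, and the difference was -0.84 (SE 0.13, 95% interval -1.12 to -0.56, adjusted p = 0.0322).

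Serpine2, a secreted inhibitor of thrombin and related proteases (chr1:79794197-79861180, minus strand), held 83.7, 80.8 and 75.2 FPKM in day 3 controls and 99.9, 84.1, 91.1 and 90.1 with follistatin. Late controls held 90.4, 83.5 and 93.5 FPKM and late follistatin libraries 62.6, 62.0, 56.4 and 53.2. Follistatin libraries stood above controls at day 3 without a call (0.19, adjusted p = 0.254) and below them late, with a difference of -0.79 (SE 0.12, 95% interval -1.05 to -0.52, adjusted p = 0.0322). Zfp180, a zinc finger protein (chr7:24081924-24107713, plus strand), held 8.0 to 8.98 FPKM in the 7 day 3 libraries, 9.88, 7.98 and 9.19 in late controls, and 5.08, 5.08, 5.16 and 4.38 with follistatin late. Its difference was -0.70 (SE 0.12, 95% interval -0.96 to -0.45, adjusted p = 0.0437). For all 10 called genes the follistatin libraries shifted more between the times than the controls did. Over the 1678 genes with an unadjusted p under 0.05 (14.8%) that was so for 1447, and the controls shifted more for 231.

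**Figure D2:**
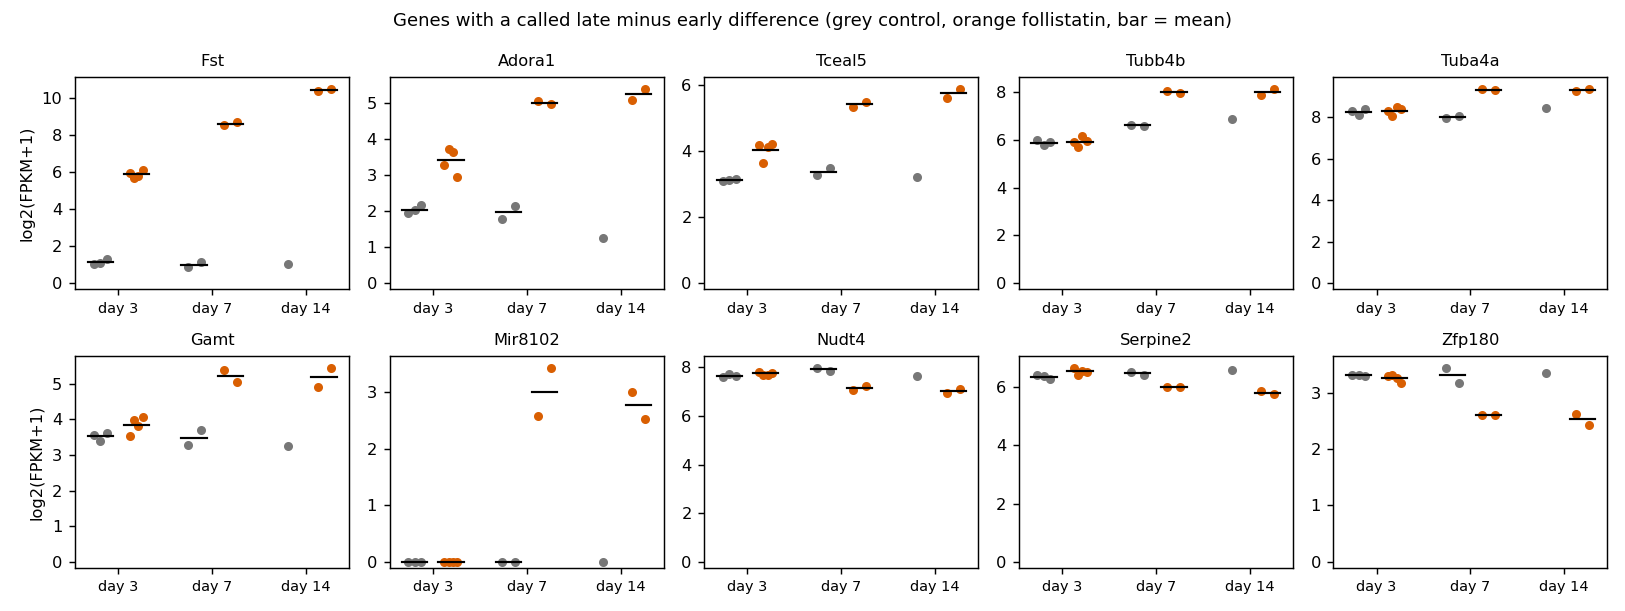
Each panel shows log2(FPKM + 1) of 1 gene in each library by day, with controls in grey, follistatin in orange and the mean of each group as a bar; the 14 day control group is 1 library. Fst, Adora1 and Tceal5 are apart at day 3 and farther apart later, while the other 7 genes lie close at day 3 (all but Serpine2 overlapping) and apart in the late set; Mir8102 is at 0 outside late follistatin.

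No response of day 3 was shown to have been lost. Of the 152 genes called at day 3, 63 had a smaller or opposite late effect, and for 17 the difference pointed towards 0 at an unadjusted p under 0.05. The closest to a call was Nmrk2, a muscle kinase of nicotinamide riboside that feeds NAD synthesis (chr10:81198170-81202051, minus strand). Controls held 83.5, 119 and 92.2 FPKM at day 3 and 138, 155 and 127 late, and follistatin libraries 183, 248, 236 and 196 at day 3 and 150, 142, 101 and 122 late. The groups stood apart at day 3 and overlapped late. Nmrk2 rose by 1.13 at day 3 (adjusted p = 0.0321), the late effect was -0.13 and the difference -1.26 (SE 0.23, 95% interval -1.75 to -0.78, adjusted p = 0.0766). With 6 groups by day it was called (adjusted p = 0.025, range over the alternatives 0.025 to 0.166), and it was called in 6 of 13 alternatives and in 1 of 14 fits without a library.

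The next genes raised at day 3 and less raised late, by p of the difference, act in membranes, the nucleolus, insulin signalling and glycogen. Murc (now Cavin4), a caveola protein of muscle, rose by 0.54 at day 3 against -0.05 late, a difference of -0.58 (adjusted p = 0.145). Npm3, a nucleolar chaperone, rose by 0.73 against 0.06 late, a difference of -0.67 (adjusted p = 0.209). The leucine-rich repeat gene Lrrc30 rose by 0.94 against 0.29 late, a difference of -0.65 (adjusted p = 0.229). None of these differences was called, so a smaller late effect was not shown for any of them.

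In several of these genes the controls shifted up between the times: by 0.52 in Nmrk2, 0.55 in Npm3, 0.52 in Lrrc30 and 0.49 in Irs1. Irs1, the insulin receptor substrate that links insulin and IGF receptors to Akt, rose by 1.23 at day 3 and had a late effect of 0.64, a difference of -0.59 (adjusted p = 0.217). Follistatin libraries of Irs1 held 31.7, 26.3, 32.5 and 27.5 FPKM at day 3 and 25.3, 33.5, 24.6 and 26.5 late, while controls held 10.6, 12.4 and 13.0 and then 17.8, 19.7 and 14.5. Irs1 shares 30.9% of its exon bases with Gm9747 on the opposite strand. Ppp1r3c, which targets a protein phosphatase to glycogen, rose by 1.43 at day 3 and had a late effect of 0.56. Its controls shifted up by 1.6 between the times and its follistatin libraries by 0.73, and the difference of -0.86 was not called (adjusted p = 0.241). Fgf6, a fibroblast growth factor of muscle chosen after its values were seen, had effects of 1.44 and 0.51 (difference adjusted p = 0.311).

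Among genes lower at day 3, Tmem98, a membrane protein, fell by 0.70 at day 3 against 0.01 late, with all libraries at 0.755 to 2.58 FPKM and a difference of 0.71 (adjusted p = 0.238). Sqstm1, a receptor of selective autophagy, fell by 0.42 against -0.17 late. Trim63, the muscle ubiquitin ligase MuRF1, fell by 0.50 at day 3 and its late effect of -0.40 was not called (adjusted p = 0.0628), with a difference of 0.11 (95% interval -0.16 to 0.37, adjusted p = 0.689). Ltbp3, which holds latent TGF-beta in the matrix, had effects of -0.52 and -0.38, and Plekhh3 of -0.60 and -0.48.

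Chac1, an enzyme that breaks down glutathione, fell by 3.24 at day 3. Its effect was -3.82 at day 7 and -0.88 at day 14, where the only control library held 10.3 FPKM and the follistatin libraries 2.91 and 8.66. The difference was 0.70 with the days pooled (SE 0.82, adjusted p = 0.695) and -0.58 with day 7 alone as the late set.

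**Figure D3:**
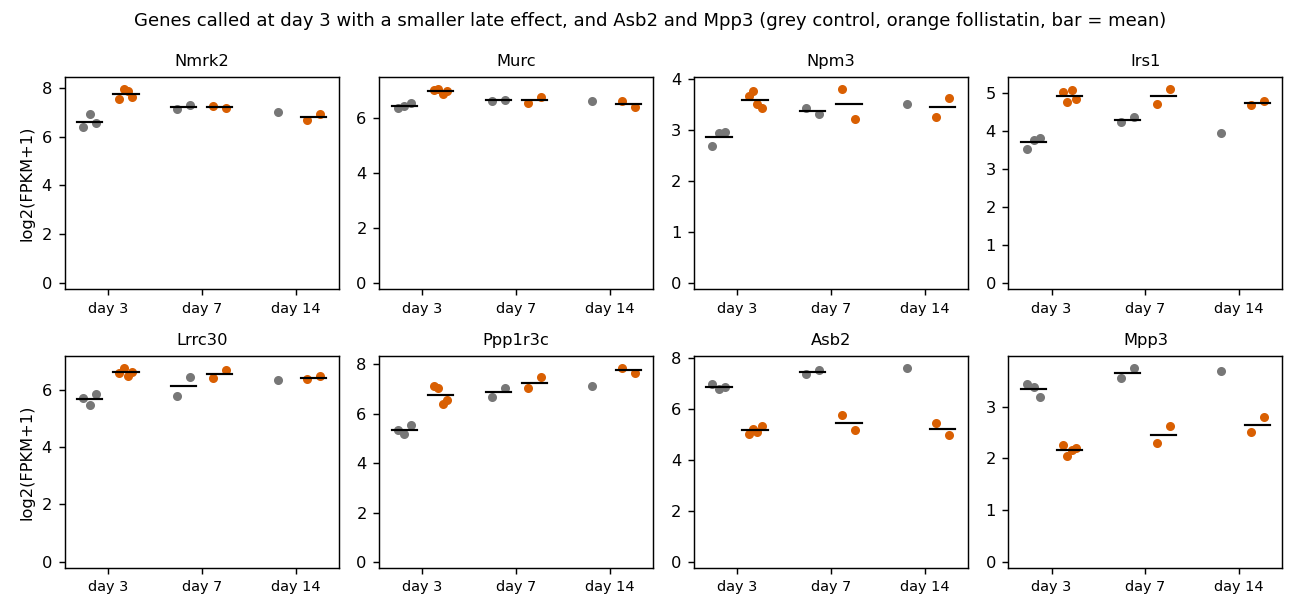
Log2(FPKM + 1) by library and day (controls grey, follistatin orange, bars are means; the day 14 control is 1 library) for 6 genes raised at day 3 with a smaller late effect, and for Asb2 and Mpp3. In Nmrk2 and Murc the arms are apart at day 3 and overlap late, the control mean is higher late than at day 3 in all 6, and in Asb2 and Mpp3 the arms are apart at every day.

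A steady response, called at both times in the same direction with a 95% interval of the difference inside 1.5-fold, was found for 21 genes. The count ran from 1 to 26 when each library was left out in turn, and it was 35 with both effects taken from the 14-library fit. The 6 with the largest mean effect were mostly lower with follistatin. Rab11fip3, an effector of vesicle recycling, fell by 1.01 at day 3 and by 1.12 late, with a difference of -0.11 (95% interval -0.38 to 0.16). Its follistatin libraries held 12.1 to 14.9 FPKM at day 3 and 14.5 to 16.0 late, and its controls 26.5 to 31.0 and 31.3 to 35.9.

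Mpp3, a membrane scaffold, fell by 1.17 and by 1.11, with a difference of 0.05 (95% interval -0.29 to 0.40). Mrln, the micropeptide myoregulin that inhibits the calcium pump of the sarcoplasmic reticulum, fell by 0.92 and by 0.87. Kcnj11, the pore of the ATP-sensitive potassium channel, fell by 0.79 and by 0.90, and Apol6 fell by 0.99 at both times. Prkag2, a regulatory subunit of AMP-activated kinase, rose by 0.90 and 0.77. The 95% interval of each difference lay within 1.5-fold. The authors' deposited Cuffdiff tables call Apol6 at neither time (q = 0.838 at day 3 and 0.652 late), and each other steady gene named here at both. Apol6 shares 64 exon bases, 1.42% of its own, with the myoglobin gene Mb on the opposite strand. Mb held at least 525 FPKM in every library and Apol6 at most 13.5, and Mb too was lower with follistatin. The part of Mb fragments in the Apol6 values was not tested.

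Asb2, the substrate-binding subunit of a ubiquitin ligase known to limit muscle mass, fell at both times, with effects of -1.72 at day 3 and -2.18 late. Follistatin libraries held 31.7, 36.6, 33.2 and 39.9 FPKM at day 3 and 53.4, 35, 43.0 and 30.6 late, while controls held 125, 111 and 118 and then 165, 188 and 198. Most of the shift lay in the controls (0.63, against 0.17 with follistatin), and the difference of -0.47 was not called (95% interval -0.94 to 0.01, adjusted p = 0.341). Mstn, myostatin itself, had effects of 0.67 (adjusted p = 0.123) and 0.87 (adjusted p = 0.171), neither called, and a difference of 0.20 (95% interval -0.68 to 1.09, adjusted p = 0.832). The authors' deposited Cuffdiff tables do call Mstn higher at both times (q = 0.00191 at day 3 and 0.000894 late).

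Lists of genes by function were described by counts and medians beside those of all genes (medians 0.01 at day 3, -0.09 late, -0.11 for the difference). Among 21 ligands, receptors and Smads of the activin branch, 5 had a lower and 1 a higher difference at an unadjusted p under 0.05. The shares of all genes were 11.9% and 2.99%, and the list's median difference of -0.16 lay near that of all genes. Smad4, the partner of all receptor-activated Smads, held 21.4 to 25.9 FPKM in day 3 libraries and 19.8 to 23.7 in late controls, against 10.8, 15.6, 16.8 and 11.3 with follistatin late. The arms of Smad4 did not overlap late and its difference was -0.72 (SE 0.20, adjusted p = 0.186). Acvr1, a BMP and activin receptor kept on the BMP list, fell late by 1.14 (adjusted p = 0.0192), with a difference of -0.62 (adjusted p = 0.241). Wfikkn2, like follistatin a secreted binder of myostatin, had a difference of -0.85 (adjusted p = 0.238) and Inha, the inhibin alpha subunit, one of 0.64 (adjusted p = 0.314).

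In the ankyrin repeat and SOCS box family, to which Asb2 belongs, 2 of 16 members fell at day 3 and 6 fell late, against 0.548% and 2.91% of all genes. Of the 16, 6 had a lower difference at an unadjusted p under 0.05, against 11.9% of all genes, and 0 a higher one. The median difference was -0.33, and -0.20 after median ratio rescaling. Asb14 fell late by 0.78, with 67.3 to 76.9 FPKM in late controls and 38.8 to 44.9 with follistatin, and a difference of -0.59 (SE 0.12, adjusted p = 0.126). Asb11, chosen after its values were seen, had an effect of 0.02 at day 3, fell by 1.02 late and had a difference of -1.05 (adjusted p = 0.145, and 0.0331 with 6 groups by day, range 0.0331 to 0.423). Asb15, chosen likewise, fell at both times (-0.65 and -1.58).

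Genes of insulin-like growth factor signalling, Akt and mTOR had a median difference of -0.28 over 35 genes. By an unadjusted p under 0.05, 8 were lower and 1 higher, against 11.9% and 2.99% of all genes (1 higher and 3 lower after rescaling). Foxo4, a forkhead factor that Akt keeps out of the nucleus, fell late by 1.13. It held 54.7 to 63.8 FPKM in late controls and 35.4, 28.1, 24.6 and 22.3 with follistatin, and its difference was -0.84 (SE 0.19, adjusted p = 0.145, and 0.0338 with 6 groups by day, range 0.0320 to 0.444). In autophagy and mitophagy 3 of 37 fell at day 3 and 6 late, against 0.548% and 2.91% of all genes. By an unadjusted p under 0.05 the difference was lower for 6 (16.2%, near the 11.9% of all genes) and higher for 0, and after rescaling for 2 and 2, with a median that moved from -0.16 to -0.03. Optn, an autophagy receptor, fell late by 0.66 and had a difference of -0.63 (adjusted p = 0.153). Pink1, the mitophagy kinase chosen after its values were seen, fell late by 1.08 and had a difference of -0.77 (adjusted p = 0.166).

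The myoglobin and oxidative phenotype list had 23 genes tested. At an unadjusted p under 0.05, 10 had a lower difference and 0 a higher one, against 11.9% and 2.99% of all genes. The median difference was -0.32, and -0.20 after rescaling, when 6 were lower and 0 higher. Other mitochondrial lists did not share this. The 84 oxidative phosphorylation subunits had a median difference of 0.05, with 55 above 0, 1 lower and 0 higher at that p. Their median was 0.18 after median ratio rescaling and -0.05 after quantile normalization. Medians were -0.06 for 26 genes of the tricarboxylic acid cycle and -0.03 for 36 of fatty acid uptake and oxidation. Mb, myoglobin, the oxygen store of oxidative fibres, was chosen after its values were seen. Controls held 3493, 4537 and 3154 FPKM at day 3 and 4294, 3013 and 3087 late, and follistatin libraries 1812, 2096, 2519 and 2503 at day 3 and 1406, 803, 525 and 811 late. The arms of Mb stood apart at both times. Mb shares 27.6% of its exon bases with Gm49540 on the opposite strand. Mb fell late by 2.04 (adjusted p = 0.0271), while its difference of -1.30 was not called (adjusted p = 0.191). Ppargc1a, the coactivator of mitochondrial genes, had effects of 0.23 and -0.76 and a difference of -0.99 (adjusted p = 0.186), and Vegfa, the vascular growth factor, a difference of -0.76 (adjusted p = 0.186).

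At an unadjusted p under 0.05, 7 of 19 glycogen genes had a lower and 0 a higher difference, and 3 of 23 glycolysis genes a lower and 6 a higher one, against 11.9% and 2.99% of all genes. Over the members tested the difference lay below 0 for 14 glycogen and 10 glycolysis genes, and for 64.2% of all genes. Stbd1, which binds glycogen, rose at both times, by 1.31 and 1.67. Phkg1, the catalytic subunit of muscle phosphorylase kinase, fell late by 0.56 (difference -0.50, adjusted p = 0.152, and 0.0485 with 6 groups by day, range 0.0485 to 0.453). Pfkm, muscle phosphofructokinase, held 1882 to 2206 FPKM in late controls and 962 to 1305 with follistatin; it fell late by 0.94, and its difference was -0.65 (adjusted p = 0.145). Pgk1, phosphoglycerate kinase, rose late by 0.72 and had a difference of 0.52 (adjusted p = 0.186), while its controls shifted by 1.66 between the times. Of its 50-base stretches 53.9% occur in other genes.

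Contractile genes made in development and in slow fibres had higher median effects at day 3 than late. The 14 developmental genes tested had medians of 0.61 at day 3 and 0.11 late, with a median difference of -0.32, although the 2 with an unadjusted p under 0.05, Mybph and Actc1, were both higher. The 13 slow fibre genes had medians of 0.44 and -0.19. No member of either list had a called difference with the days pooled, and Mybph (adjusted p = 0.0267) and Actc1 did with 6 groups by day. Csrp3, a Z-disc and stress-sensing protein, held 22.1 to 29.6 FPKM in day 3 controls and 28.5 to 41.8 with follistatin, then 29.8, 13.8 and 28.2 in late controls and 17.2, 9.13, 7.29 and 4.27 with follistatin. Its effect was 0.44 at day 3 and -1.32 late, and the difference of -1.76 was not called (SE 0.49, adjusted p = 0.186).

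Of 82 cytosolic ribosomal protein genes, 79 had a difference above 0, against 35.8% of all genes, with a median of 0.22 (0.15 after quantile normalization). Only 5 had an unadjusted p under 0.05, all higher (6.10%, against 2.99% of all genes), and 1 rose late, Rpl36al. Both arms of this list were higher late than at day 3, by a median of 0.70 in controls and 0.91 with follistatin, so the shift between the times was larger than the follistatin effects. The median follistatin effect was 0.12 at day 3, 0.47 at day 7 and 0.13 at day 14, where 1 library is the only control. Its value at day 14 thus lay near that of day 3. In the proteasome 35 of 39 genes had a difference above 0 (median 0.18), 3 of them at an unadjusted p under 0.05, against 2.99% of all genes. Those 3 became 12 after median ratio rescaling, 9 after quantile normalization and 0 without control day 7 replicate 1, and the 5 ribosomal genes became 16 after rescaling and 2 without that library.

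Small heat shock proteins hold unfolded proteins in solution and bind the sarcomere. Of 37 heat shock and chaperone genes, 3 rose at day 3 and 7 late, against 0.796% and 1.92% of all genes. The difference was above 0 for 23 of the 37, and at an unadjusted p under 0.05 it was higher for 6 and lower for 2, against 2.99% and 11.9% (11 and 2 after median ratio rescaling). Hspb6 held 659, 699 and 673 FPKM in day 3 controls and 882, 691, 945 and 869 with follistatin, then 755, 703 and 729 and, with follistatin, 1583, 1240, 1657 and 1714. Its arms overlapped at day 3 and not late, and its difference was 0.76 (SE 0.17, adjusted p = 0.145). Cryab, alpha-B crystallin, rose late by 1.18 (difference 0.92, adjusted p = 0.201). Hspb8, chosen after its values were seen, rose by 0.76 and 1.68 (difference adjusted p = 0.25, and 0.0194 with 6 groups by day, range 0.0132 to 0.468).

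**Figure D4:**
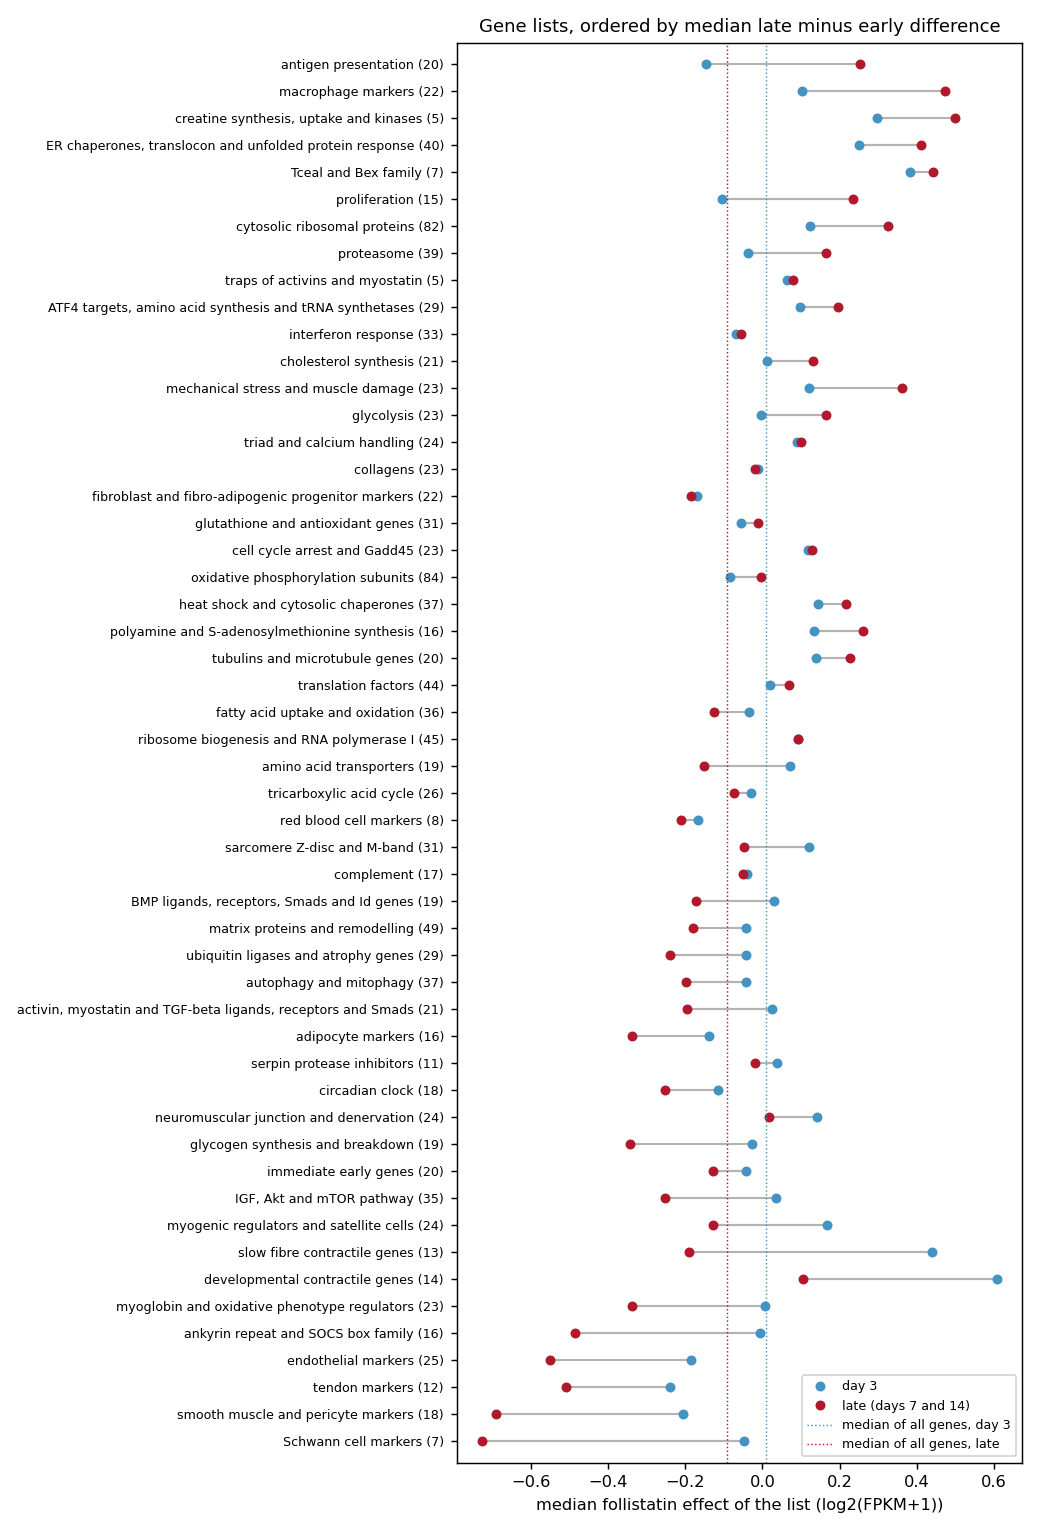
For each gene list (number tested in brackets), the median follistatin effect of its members at day 3 (blue) and late (red), on the log2(FPKM + 1) scale, ordered by the median difference; dotted lines are the medians of all genes, 0.01 and -0.09. Chaperones of the endoplasmic reticulum lie to the right at both times (0.25 and 0.41), while the ankyrin repeat family, endothelial, smooth muscle and Schwann cell markers lie farther left late.

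The endoplasmic reticulum (ER) folds secreted and membrane proteins, and its chaperones are raised together by the unfolded protein response, whose factors bind the ER stress response element (ERSE). Of 40 genes of ER chaperones, translocon and unfolded protein response, 5 rose at day 3 (Pdia6, Manf, Hspa5, Sec61g and Ssr3) and 5 late (Ssr2, Pdia6, Manf, Hspa5 and Sec61b), and 0 fell. The shares of all genes that rose were 0.796% and 1.92%. The median effect of the list was 0.25 at day 3 and 0.41 late. The difference was above 0 for 33 of 40, against 35.8% of all genes, and at an unadjusted p under 0.05 it was higher for 8 and lower for 0, against 2.99% and 11.9%. The median difference was 0.26, and 0.38 and 0.28 after median ratio and quantile rescaling. None of the 40 was called with the days pooled, and 3 were with 6 groups by day. The late median was 0.21 at day 7 and 0.62 at day 14.

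Ssr2, a subunit of the translocon-associated complex, held 23.5, 24.1 and 26.1 FPKM in day 3 controls and 32.5, 28.4, 31.7 and 27 with follistatin. Late controls held 23.2, 23.4 and 26.8 FPKM and late follistatin libraries 46.7, 40.3, 53.0 and 62.5. The arms stood apart at both times, and the difference was 0.73 (SE 0.18, adjusted p = 0.152). The genes of the next paragraph were chosen after their values were seen.

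Hspa5, the main chaperone of the ER lumen (BiP), held 79.8, 85.8 and 86.0 FPKM in day 3 controls and 84.5, 81.8 and 82.4 in late controls. With follistatin it held 165, 136, 142 and 139 at day 3, then 156 and 194 on day 7 and 322 and 341 on day 14. The controls stayed within a narrow range and the day 14 follistatin libraries stood above all others. The difference was 0.74 (SE 0.30, adjusted p = 0.298, and 0.0378 with 6 groups by day, range 0.0119 to 0.520). Manf, a secreted ER stress protein, rose by 0.75 at day 3 and 1.98 late, with 14.7 and 17.0 FPKM at day 7 and 34.5 and 46.4 at day 14 with follistatin, against 5.48 to 5.91 in late controls (difference 1.22, adjusted p = 0.239, and 0.00918 with 6 groups by day, range 0.00918 to 0.473). Calr, calreticulin, held 92.2 to 96.3 FPKM in late controls and 139, 148, 238 and 270 with follistatin, and its difference of 0.75 had an adjusted p of 0.247 (0.00743 with 6 groups by day, range 0.00725 to 0.488). Pdia6, a disulfide isomerase, rose by 0.70 and 1.44.

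The promoters were searched for ERSE, the letters CCAAT and CCACG with 9 bases between them, on either strand, in the 250 bases before the start of each gene in the RefSeq table. It was found in 8 of the 31 listed genes that have a promoter there (25.8%), against 12 of 8449 tested genes (0.142%) and 37 of 32851 promoters in all (0.113%). The list was put together from genes of the unfolded protein response among others, so this share is no result of follistatin. Those 8 genes are shown because the difference was larger in them: medians of 0.26 at day 3, 0.85 late and 0.62 for the difference, above 0 in 8 of 8, with 5 at an unadjusted p under 0.05. The 23 listed genes whose promoter lacks these letters had medians of 0.19, 0.33 and 0.19, above 0 in 19, with 1 at an unadjusted p under 0.05. This split was not tested. Sequences are RefSeq GRCm38.p6, 5′ to 3′ on the gene's strand, with ERSE letters in capitals, and CGTGG followed by ATTGG is the same element on the other strand. Hspa5 is given for all 250 bases (chr2:34771840-34772089, plus strand), the others for the element and 20 bases on each side; Hsp90b1 holds 2 matches, of which the one nearer the start is shown.
Hspa5: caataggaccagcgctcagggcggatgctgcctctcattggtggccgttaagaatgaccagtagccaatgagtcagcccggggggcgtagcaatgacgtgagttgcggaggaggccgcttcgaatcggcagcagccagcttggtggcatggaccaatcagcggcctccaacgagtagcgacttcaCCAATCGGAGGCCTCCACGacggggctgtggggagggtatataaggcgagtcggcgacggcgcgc
Hsp90b1: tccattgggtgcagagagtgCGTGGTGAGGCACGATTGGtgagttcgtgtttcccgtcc
Calr: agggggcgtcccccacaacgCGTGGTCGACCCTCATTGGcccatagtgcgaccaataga
Canx: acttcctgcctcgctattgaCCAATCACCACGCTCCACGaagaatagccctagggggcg
Pdia6: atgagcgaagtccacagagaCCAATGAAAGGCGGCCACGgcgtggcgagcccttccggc
Dnajc3: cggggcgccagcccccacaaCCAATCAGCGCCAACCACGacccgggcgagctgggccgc
Creld2: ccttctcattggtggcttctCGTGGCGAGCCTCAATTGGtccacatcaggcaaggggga
Syvn1: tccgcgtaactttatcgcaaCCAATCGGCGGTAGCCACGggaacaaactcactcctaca

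The stretches lie at chr10:86705513-86705571 (Hsp90b1, minus), chr8:84847055-84847113 (Calr, minus), chr11:50325780-50325838 (Canx, minus) and chr12:17266471-17266529 (Pdia6, plus). Those of Dnajc3, Creld2 and Syvn1 lie at chr14:118937807-118937865, chr15:88819500-88819558 and chr19:6046512-6046570, all on the plus strand. Among the 8 genes the difference ran from 0.19 in Dnajc3 and Canx to 0.75 in Calr, and the effect at day 14 was larger than at day 7 in each. Syvn1, a ubiquitin ligase of the ER membrane, was below controls at day 3 (-0.18) and above them late (0.38), neither called. Hsp90b1, the ER member of the heat shock 90 family, had effects of 0.35 and 0.75 and a difference of 0.41 (adjusted p = 0.521). A match of letters is not evidence that a factor was bound.

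**Figure D5:**
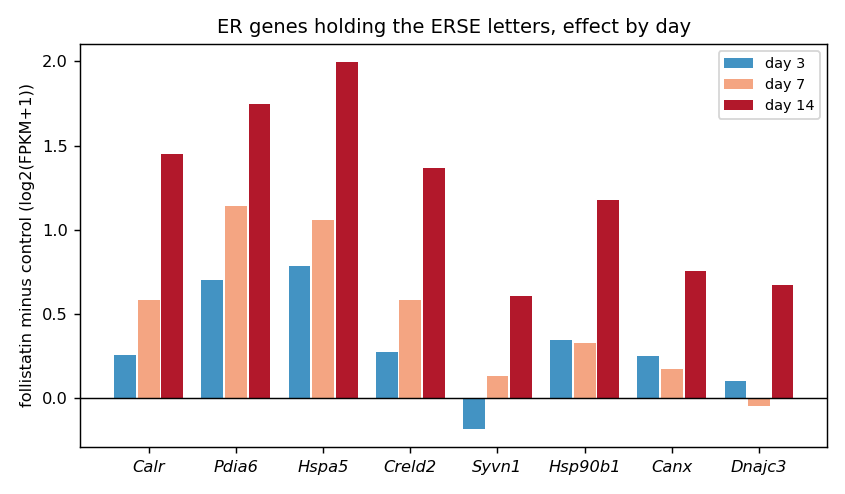
Follistatin minus control on the log2(FPKM + 1) scale at day 3, day 7 and day 14 for the 8 ER genes whose promoter holds the ERSE letters; bars are differences of group means with no error shown, and the day 14 control is 1 library. The day 14 bar is the tallest in each gene, from 0.61 in Syvn1 to 1.99 in Hspa5.

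In the list of ATF4 targets the element TGATGNAA was found in 9 of 23 promoters (39.1%), against 2.40% of tested genes, and that list's median difference was 0.17 over 29 genes. Because the list was put together from ATF4 targets, this share follows from the choice of members and is no result of follistatin. Of the 29 genes, 0 rose and 1 fell at day 3, against 0.796% and 0.548% of all genes. Late, 0 rose and 1 fell, against 1.92% and 2.91%. At an unadjusted p under 0.05 the difference was higher for 4 and lower for 1, against 2.99% and 11.9%. Mthfd2, a mitochondrial folate enzyme chosen after its values were seen, held 3.6 and 5.0 FPKM at day 7 and 18.2 and 25.8 at day 14 with follistatin, against 2.07 to 3.18 in late controls. Its difference was 1.48 (SE 0.66, adjusted p = 0.326, and 0.0165 with 6 groups by day, range 0.00961 to 0.513). Of the 10 called genes 8 have a promoter in the table, and 0 of these held ERSE, TGATGNAA, the E-box CAGCTG, a CArG box or a MEF2 box. Among tested genes these shares were 0.142%, 2.40%, 14.6%, 1.47% and 2.32%. With 8 promoters a count of 0 cannot be told apart from such shares.

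Some further members of the lists had values that differed by time without a call. Gadd45a, a stress and growth arrest gene, held 14.4 to 21.3 FPKM in late controls and 37.6, 44.6, 71.3 and 149 with follistatin, with a difference of 1.4 (SE 0.52, adjusted p = 0.261). Odc1, the first enzyme of polyamine synthesis, rose by 0.49 at day 3 and 1.16 late (difference 0.68, adjusted p = 0.217). Gadd45a shares 19.1% of its exon bases with E230016M11Rik on the other strand, and 24.3% of the 50-base stretches of Odc1 occur in other genes. Serpinb1a, an inhibitor of neutrophil proteases, held 6.79 and 12.7 FPKM at day 7 and 23.8 and 31.1 at day 14 with follistatin, against 1.83 to 3.33 in late controls. It rose late by 2.37, and its difference was 1.94 (SE 0.53, adjusted p = 0.186, and 0.025 with 6 groups by day, range 0.00663 to 0.457). At the neuromuscular junction Ache, acetylcholinesterase, had a difference of 0.86 (adjusted p = 0.152, and 0.0331 with 6 groups by day, range 0.0331 to 0.446) and Rapsn, which clusters acetylcholine receptors, one of -0.72 (adjusted p = 0.153). Nqo1, a quinone reductase, fell late by 0.88 (difference -0.76, adjusted p = 0.146).

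Markers of other cell types moved with the comparison, and in bulk RNA fewer cells of a type and less RNA per cell cannot be told apart. All 25 endothelial markers were tested, and none was at 0 in every library. Their summed level was 989 to 1107 FPKM in day 3 controls and 846 to 925 with follistatin, then 911 to 1138 in late controls and 542 to 821 with follistatin. The arms did not overlap at either time. The median difference was -0.33, with 8 lower (32%, against 11.9% of all genes) and 0 higher at an unadjusted p under 0.05. The 8 became 4 after median ratio rescaling and 3 without control day 7 replicate 1. Kdr, the main receptor of Vegfa, chosen after its values were seen, had a difference of -0.94 (adjusted p = 0.266). Kdr controls rose between the times, from 10.6, 12.5 and 12.3 FPKM at day 3 to 27.6, 23.4 and 17.2 late. Kdr follistatin libraries overlapped between the times, with 13.1, 16.6, 11.6 and 5.94 FPKM late. Erg, an endothelial factor, had a difference of -0.57 (adjusted p = 0.232). The part of these markers in the differences of Vegfa, Serpine2 and the myoglobin list was not tested.

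Of 19 smooth muscle and pericyte markers 18 were tested, with a median difference of -0.50. At an unadjusted p under 0.05, 3 were lower (16.7%, near the 11.9% of all genes) and 0 higher. The sums of this list overlapped between late arms, at 1136 to 1226 FPKM in controls and 1049 to 1446 with follistatin. Of 20 Schwann cell markers 7 were tested, all 7 with a difference below 0 (median -0.74). The sum of all 20 was 53.8 to 109 FPKM in late controls, the highest in the control library of day 14, which held 16.8 FPKM of Mbp, a myelin protein gene, against 7.16 or less in day 7 controls. The median follistatin effect on the 7 was -0.19 at day 7 and -1.47 at day 14, where this library is the only control.

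Macrophage markers (22 of 25 tested) summed to 271 to 409 FPKM in day 3 controls, 257 to 600 with follistatin at day 3, 73.5 to 192 in late controls and 116 to 395 with late follistatin. Controls fell by a median of 1.27 between the times, and the median difference was 0.40 with 0 genes at an unadjusted p under 0.05. All 20 antigen presentation genes had a difference above 0 (median 0.55). Without control day 7 replicate 1 that was 16 of 20, with a median of 0.32, and the macrophage median was 0.24. The groups of both lists overlapped, and their part in other differences was not tested.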

How the data were processed

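TopHat, Cuffdiff and the build mm10 are named in the submitters' processing notes, and FPKM are the authors' values; versions, annotation and strand setting are not given in the sources used here. Each library has a deposited file of FPKM per gene. The authors' deposited tables for day 3 and for days 7 and 14 hold log2 fold changes, test statistics (a score), p-values and q-values of Cuffdiff; their 4 columns of group FPKM were not used. Of 24386 genes, 27 with symbols turned into dates were left out, as were 31 marked HIDATA in either table. Libraries were grouped by the treatment and day of their labels. Depth is unknown, because no counts were used.

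With limma 3.58.1 in R 4.3.3 (lmFit, eBayes with trend), log2(FPKM + 1) of the 14 libraries was fitted in 4 groups over genes with a mean FPKM of at least 1, and the late minus early difference of follistatin effects was tested, two-sided. The day 3 and late effects and their calls came from each set fitted alone over the same 11306 genes. A gene was called where the p adjusted by Benjamini and Hochberg was under 0.05. Because 1 is added, fold changes of low genes are understated. Late only means a called late effect and difference without a day 3 call; growing, called at both times and away from 0; early only, fading and reversed are the converse cases; steady, called at both times with the 95% interval of the difference within 1.5-fold.

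Named genes are Fst, Asb2 and Mstn, up to 6 in each direction of each class, 6 in each direction called at day 3 with the smallest p of the difference among smaller late effects, 6 steady genes, and 1 per list and direction, without small RNA, predicted genes and pseudogenes; not all members named by list are described. Others are said to be chosen after their values were seen. The comparison, the lists and the rule were chosen with earlier results of these data known. Positions and shared exon bases or 50-base stretches came from GENCODE M21, sequences from RefSeq GRCm38.p6. The steps were tested on simulated data. Alternatives are given in the closing section.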

Additional observations from a re-analysis of the deposited data

Results flagged for a closer look

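The late minus early difference itself passed the test for 10 genes: Fst 3.77, Mir8102 2.88, Adora1 2.04, Gamt 1.46, Tceal5 1.35, Tubb4b 1.27, Tuba4a 1.13, Nudt4 -0.84, Serpine2 -0.79 and Zfp180 -0.70, all on the log2(FPKM + 1) scale. Mir8102 is listed at 0 in 10 libraries, so its call is no usable test.

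One library lay far from the other 3 of its group, by Dixon's criterion, in 8 of 186 groups of 4 examined; chance alone gives about 1 in 20. In late follistatin these were the lowest library of Zfp180 (4.38 FPKM), and the highest of Rab11fip3 (16.0 FPKM), Kcnj11 (33.8 FPKM) and Ube2c (3.16 FPKM), a proliferation gene chosen after its values were seen. At day 3 with follistatin they were the lowest library of Prkag2 (11.7 FPKM) and of Stbd1 (67.8 FPKM), and the highest of Cryab (659 FPKM) and of Nqo1 (16.6 FPKM).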

How the results depend on the processing

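Called differences numbered 7 higher and 3 lower. They numbered 2 and 0 with no filter on low values, 6 and 0 after median ratio rescaling, 34 and 35 with 6 groups by day, 10 and 5 with day 7 alone as the late set, 29 and 42 with day 14 alone, and 9 and 15 with HIDATA genes kept. Late-only genes (7) then numbered 2, 4, 56, 7, 26 and 19, and growing genes (3) 0, 2, 11, 1, 1 and 3. Early-only genes (0) numbered 1 with a mean FPKM of at least 5, with quantile normalization and with robust eBayes, 2 with 6 groups by day, 10 with day 14 alone and 2 with HIDATA genes kept. Genes in no class (0) numbered 7 with day 7 alone and 34 with day 14 alone. Steady genes (21) numbered 3 with no filter, 64 with 1 weight for each set, 49 with 6 groups by day, 0 with either day alone and 35 with effects from the 14-library fit. The cause of these moves was not tested; day 7 alone leaves 2 late libraries an arm, and day 14 alone leaves 1 late control, assumed to vary like the other groups, with 27 small RNA genes among its 71 calls. With HIDATA genes kept, genes listed at 0 in whole groups without an estimate entered the test, Ckm and Mylpf among them. A call of such a gene is no usable test. With day 7 alone as the late set, 9 of the 15 called genes were small RNA genes. Leaving out each library gave 2 to 14 higher, 0 to 18 lower, 2 to 24 late only, 0 to 7 growing, 0 to 2 early only, 0 to 1 in no class and 1 to 26 steady. Fading and reversed genes numbered 0 in every setting run.

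Replicate numbers showed no sign of pairing the libraries: correlations of deviations were -0.049, -0.056 and -0.032 at day 3 and 0.017 at day 7. With so few libraries an arm this check cannot exclude a weak pairing, and the labels state none. A replicate block gave 0 higher and 3 lower called differences (none of the 10), with 1 late only, 0 growing and 2 early only. All 3 were small RNA genes.

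Differences that changed sign were uncalled ones. Mstn gave -0.035 without control day 7 replicate 1 (-0.035 to 0.49 over the libraries left out). Chac1 gave -0.58 with day 7 alone. Plekhh3 gave -0.16 with day 14 alone and -0.00057 to 0.21 over the libraries left out, lowest without follistatin day 7 replicate 1. Ckb, a creatine kinase, gave -0.10 with the replicate block and -0.056 to 0.42 over the libraries left out, lowest without follistatin day 3 replicate 4. Tceal1 gave 0.054 after median ratio rescaling, 0.067 after quantile normalization, 0.13 with day 14 alone and -0.28 to 0.13 over the libraries left out.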
